A study of Mus musculus with 4 samples.

Results

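The metabolic nuclear receptors of the enterocyte described here are 10 genes, chosen by symbol: the 3 peroxisome proliferator-activated receptors Ppara, Ppard and Pparg, the retinoid X receptors Rxra and Rxrb, the drug and bile acid sensors Nr1i2 and Nr1i3, the vitamin D receptor Vdr, and the hepatocyte nuclear factors Hnf4a and Hnf4g. All 10 were present among the 25522 genes of the table without tetracycline and the 26085 genes of the table with tetracycline. RNA was sequenced from small-intestinal crypts of male C57BL/6J mice aged 9 weeks, in 4 groups for which the labels name no transgene or mutation. They were fed mice without tetracycline, mice fasted for 24 hours without tetracycline, fed mice given the antibiotic for 21 days, and mice given it for 21 days and fasted for 24 hours. The study asked how depletion of what the labels abbreviate as AKK by the antibiotic alters expression in fed against fasted animals; tetracycline can also act on other bacteria and on the host. The labels list 1 sample in each group, but the whole counts behind the authors' means show 2 fasted and 2 fed libraries in each table. Which of them is the labelled sample is unknown, and the sources used here do not say whether they came from separate animals. The authors' p-values therefore rest only on the spread between these libraries, which may be technical. DESeq2, which the authors used, estimates that spread with the help of all genes. The standard error of a gene is thus not the spread of its own libraries alone.

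Nuclear receptors are transcription factors switched by small lipophilic ligands. Most of those treated here bind DNA as a pair with a retinoid X receptor: the peroxisome proliferator-activated receptors (PPARs) sense fatty acids and drive their oxidation, PXR (encoded by Nr1i2) and CAR (encoded by Nr1i3) sense drugs and bile acids and drive detoxification, and the vitamin D receptor senses calcitriol and drives calcium uptake. HNF4α and HNF4γ bind as dimers of their own family and maintain the brush border and lipid transport programme of the enterocyte. Ligand binding changes the activity of these proteins without any need for more of their messenger RNA, and only the messenger RNA was measured here.

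Transcripts of the 10 receptors were not called as changed by fasting in either table. Without tetracycline 0 of 10 receptors had an authors' adjusted p under 0.05 in DESeq2's test with Benjamini-Hochberg adjustment, beside 2.27% of 18100 genes, and 0 of 10 had an unadjusted p under 0.05, beside 10.8%. With tetracycline 0 of 10 were called, beside 0.6% of 17993 genes, and 1 of 10, Ppard, had an unadjusted p under 0.05, beside 5.34%. Of 10 genes, less than 1 call is what either background share would give, so the counts of 0 are no result about the receptors. The median log2 change over the 10 was 0.10 without and 0.09 with tetracycline, and over all genes tested it was 0.01 and -0.02. A positive change means a higher level in fasted mice. That direction was read from the order of words in the names of the tables, and every direction below depends on it.

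All values per library below are normalized counts, that is whole counts divided by the size factor of the library. In a bulk sample, fewer cells of a type and less RNA per cell cannot be told apart. Of the libraries on a side, number 1 has the larger size factor; the numbers pair nothing between groups.

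The fasted libraries with tetracycline stood apart from each other in cell type markers. Of 9 enterocyte markers only Lct, which encodes the brush border lactase, had recovered counts in both tables; it was at 10035 in fasted library 1 and 69982 in fasted library 2, a ratio of 6.97, against 41582 and 43546 in the fed libraries. The stem cell sum went the other way, at 0.257 of fasted library 1 in fasted library 2, and so did the Paneth cell sum at 0.189 and the lymphocyte sum at 0.171. Most of the stem cell sum is Olfm4, with a mean of 56702 with tetracycline, against 4176 for Smoc2 and 757 for Lgr5. Without tetracycline Lct was at 119650 in fasted library 1 and 27981 in fasted library 2, and the stem cell sum of fasted library 2 was 1.29 times that of fasted library 1. The standard deviation of the log2 ratio between the 2 fasted libraries, over genes averaging 500 normalized counts or more, was 0.82 with and 0.48 without tetracycline, and the median standard error of the fasting change was 0.49 and 0.34. The summed level of the epithelial markers Cdh1, Cdx1, Cdx2 and Krt18 was 56550 to 92429 over the 8 libraries, and the stem cell sum was 23269 to 101869. By their fasting changes, 7 of 9 enterocyte markers were positive in both tables, with median log2 changes of 0.58 without and 0.98 with tetracycline, and 1 of them, Fabp1, was called without it. All 5 proliferation markers were negative in both tables, with medians of -0.63 and -0.43 and 0 called. Of 5 stem cell markers 3 were positive and 2 negative in both tables, with 0 called. Lgr5 had log2 changes of 1.06 without and 0.78 with tetracycline, and Olfm4 of -0.46 and -0.51. Of the cells that the material could also hold, all 6 lymphocyte and all 6 myeloid markers had a negative fasting change in both tables, and 2 and 1 of them were called without tetracycline. With tetracycline the fed libraries stood apart too, with lymphocyte sums of 55564 in fed library 1 and 14643 in fed library 2. The fasted libraries held 18381 and 3135, so fasted library 1 was above fed library 2. Myeloid sums were 5578 and 2613 in these fed libraries, and stem cell sums 49136 and 101869. The 4 erythrocyte markers listed fell without tetracycline, and 3 of 5 Paneth cell markers rose. The erythrocyte sum without tetracycline was 24428 and 34797 in the fasted and 87003 and 293090 in the fed libraries, which were wide apart. With tetracycline all 4 erythrocyte markers were negative and all 5 Paneth cell markers positive, with 0 called. Of 6 stromal markers 3 fell without tetracycline, the collagen genes Col3a1 (log2 change -4.24), Col1a2 and Col1a1, all 6 were negative and their median was -1.85; with tetracycline 4 of 6 were negative and 0 were called. The ileal bile acid carrier Fabp6 fell by 5.13 on the log2 scale without tetracycline, while the other 3 of 4 ileum markers were not called. With tetracycline the ileum sum of fasted library 2 was 3.61 times that of fasted library 1. Of 4 markers of the duodenum and jejunum, the iron exporter Slc40a1 fell in both tables, with log2 changes of -1.28 without (DESeq2 adjusted p 0.0113) and -1.91 with tetracycline (DESeq2 adjusted p 0.0201). The defining markers of liver were near 0, with 25 to 69 normalized counts of Alb in any library and Serpina3k not listed. The part of these differences in the results on the receptors was not tested, except where a value without a library is given.

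Per kilobase of annotated exon, Hnf4a was the most abundant of the 10 and Pparg the least. The levels given here are normalized counts per kilobase, averaged by the authors over the 4 libraries of a table, with the union of GENCODE release 21 exons as the length. The order and the gaps between genes were examined for this length only. For Ppard the union is 7514 bases and the longest transcript 3726, whereas for Nr1i2 both are 2553. Without tetracycline Hnf4a stood at 11140, with every library above every library of the next gene. Hnf4g at 6184 and Vdr at 6006 followed and overlapped each other. Nr1i2 at 2715 and Rxra at 2188 overlapped each other and lay apart from Vdr above and from Ppard below. Ppard at 1352, Rxrb at 750, Nr1i3 at 624 and Ppara at 483 each overlapped the next, and Pparg at 268 lay below every library of Ppara. With tetracycline the top was shared: Hnf4a at 9758 overlapped Hnf4g at 9523, which in turn overlapped Vdr at 6983. Nr1i2 at 2978 and Rxra at 2175 again lay between 2 gaps, and Pparg at 357 was again last and apart. Ppard at 976, Nr1i3 at 842, Rxrb at 840 and Ppara at 816 overlapped their neighbours.

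**Figure D1:**
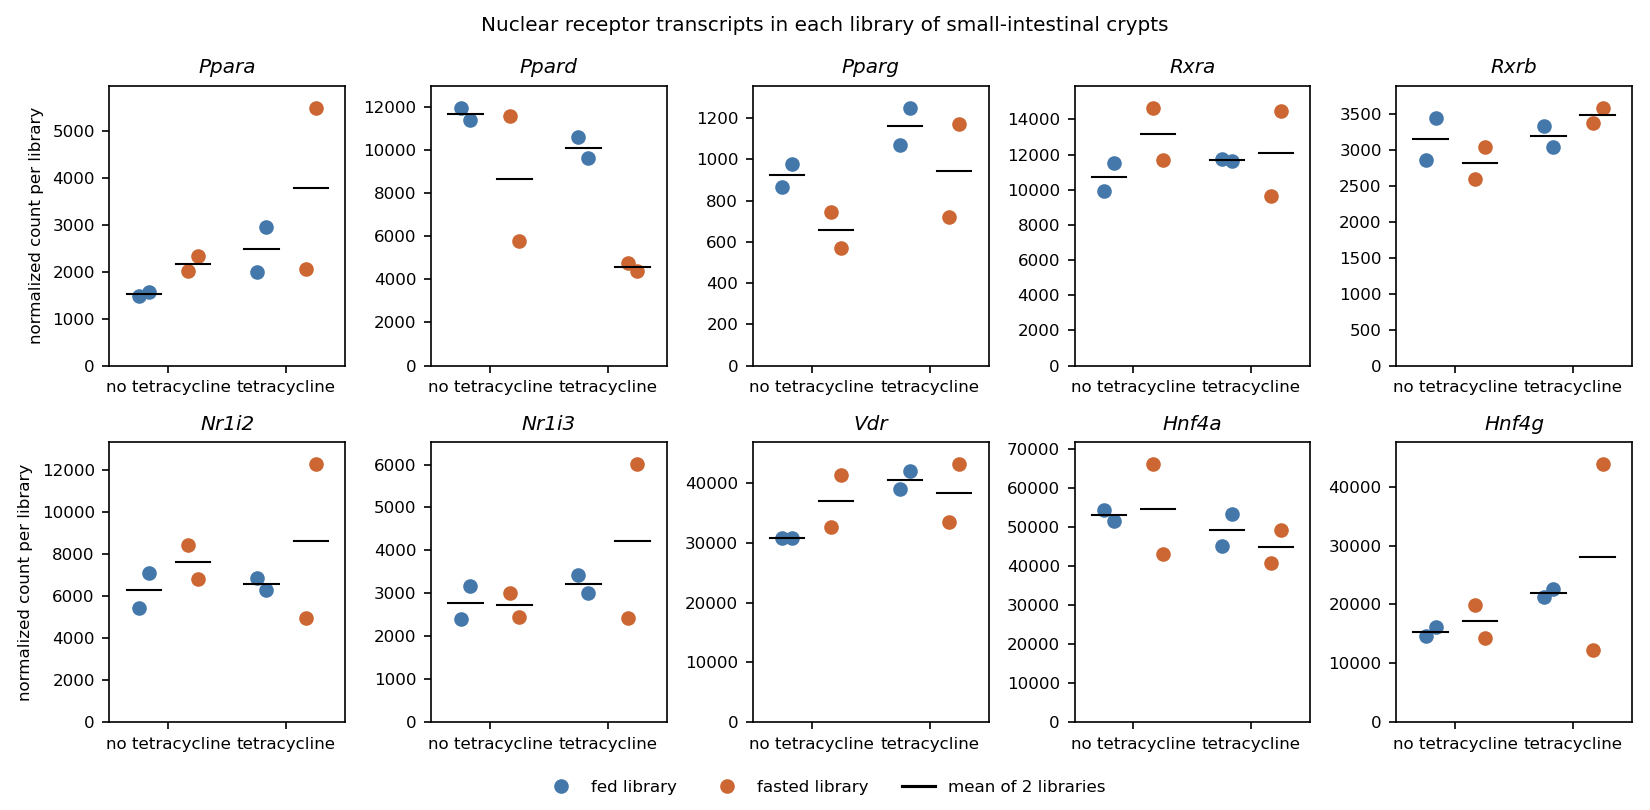
Normalized counts (vertical axes, each from 0) of the 10 receptors in each library; blue points are fed libraries, orange points fasted libraries, and black bars their mean. The 2 fasted libraries with tetracycline lie far apart for Ppara, Nr1i2, Nr1i3 and Hnf4g and close together, below the fed libraries, for Ppard.

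Ppard encodes PPARδ, a fatty acid sensor found in most tissues and active in intestinal stem and progenitor cells. Its gene lies on the plus strand at chr17:28232700-28301474 (GRCm38). Because Ppard is the only receptor with an unadjusted p under 0.05, the bases upstream of its RefSeq start that no GENCODE exon covers are shown first, chr17:28232504-28232699 on the plus strand (RefSeq, GRCm38.p6), with the GC box GGGCGG in capitals.
Ppard: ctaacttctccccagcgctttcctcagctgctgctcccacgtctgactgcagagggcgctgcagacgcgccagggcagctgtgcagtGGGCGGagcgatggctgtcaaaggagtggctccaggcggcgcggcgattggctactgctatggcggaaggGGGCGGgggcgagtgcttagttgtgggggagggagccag

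With tetracycline Ppard was at 4740 and 4390 normalized counts in the fasted libraries and at 10584 and 9606 in the fed libraries. Both fasted libraries were below both fed ones. The authors' log2 change was -1.14 (SE 0.35, 95% interval -1.84 to -0.45), with an unadjusted p of 0.00122 and a DESeq2 adjusted p of 0.132, so it was not called. Without tetracycline Ppard was at 11541 and 5770 in the fasted libraries and at 11955 and 11379 in the fed libraries. Here fasted library 1 reached into the range of the fed libraries, and only fasted library 2 was low. The authors' log2 change was -0.43 (SE 0.34, DESeq2 adjusted p 0.755). It was -0.02 without fasted library 2 and -1.02 without fasted library 1, whereas with tetracycline leaving out any library in turn kept it between -1.21 and -1.07. Ppard was also the receptor least affected by the split between the fasted libraries with tetracycline, apart from Rxrb: fasted library 2 held 0.926 times the level of fasted library 1. The fasting change with tetracycline minus that without was -0.71 (SE 0.49, 95% interval -1.68 to 0.25; two-sided Wald p over all genes 0.147, adjusted p 1.0), so a difference between the mice with and without the antibiotic was not detected.

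Ppara encodes PPARα, the receptor that switches on fatty acid oxidation and ketone synthesis in fasting. Its gene lies on the plus strand at chr15:85734983-85802819. Without tetracycline it was at 2014 and 2334 normalized counts in the fasted libraries and at 1487 and 1578 in the fed libraries. Both fasted libraries were above both fed ones. The log2 change was 0.50 (SE 0.26, 95% interval -0.01 to 1.01; unadjusted p 0.0525, DESeq2 adjusted p 0.471), the highest of the 10. With tetracycline the fasted libraries held 2060 and 5503 and the fed libraries 2003 and 2959. A single fasted library was high, the one with the high Lct, and the log2 change of 0.61 (SE 0.57, DESeq2 adjusted p 1.0) was -0.27 without it.

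Pparg encodes PPARγ, best known from adipocytes. Its gene lies on the plus strand at chr6:115360951-115490399. Without tetracycline it was at 746 and 571 normalized counts in the fasted libraries and at 866 and 980 in the fed libraries. The fasted libraries were below the fed ones, with a log2 change of -0.49 (SE 0.29, 95% interval -1.06 to 0.09; DESeq2 adjusted p 0.594). With tetracycline it was at 718 and 1172 in the fasted and 1071 and 1251 in the fed libraries, which overlapped, with a log2 change of -0.30 (SE 0.44). Of the 6 adipocyte markers 5 were listed and 2 carried an adjusted p, neither called. Cidec, among these 2, had means of 3926 without and 4018 with tetracycline, above those of Pparg. Lep, a defining adipocyte gene, was not listed.

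The retinoid X receptors, the shared partners of the receptors above and of PXR, CAR and the vitamin D receptor, had small log2 changes. Rxra (plus strand, chr2:27676440-27762957) was at 14671 and 11673 in the fasted and at 9911 and 11541 in the fed libraries without tetracycline. The fasted libraries lay just above the fed ones, with a log2 change of 0.30 (SE 0.26, 95% interval -0.22 to 0.81). With tetracycline the fasted libraries, at 9655 and 14483, enclosed the fed ones at 11741 and 11643, and the log2 change was 0.05 (SE 0.40). Rxrb (plus strand, chr17:34031812-34038399) was at 2596 and 3038 in the fasted and 2854 and 3438 in the fed libraries without tetracycline, and these overlapped. With tetracycline its fasted libraries, at 3378 and 3588, were above the fed ones at 3332 and 3044. The log2 changes of Rxrb were -0.16 (SE 0.27) and 0.13 (SE 0.36).

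Nr1i2 and Nr1i3, the genes for PXR and CAR, had small log2 changes without tetracycline and, with it, differed between the fasted libraries in the same direction as Lct. Nr1i2 (minus strand, chr16:38248323-38294824) was at 8403 and 6810 in the fasted and at 5430 and 7083 in the fed libraries without tetracycline, which overlapped, with a log2 change of 0.28 (SE 0.28). With tetracycline its fasted libraries held 4967 and 12290, to either side of the fed libraries at 6863 and 6287. The log2 change of 0.39 (SE 0.53) was -0.40 without fasted library 2 and 0.90 without fasted library 1. Nr1i3 (plus strand, chr1:171213970-171220701) was at 3011 and 2453 in the fasted and at 2391 and 3169 in the fed libraries without tetracycline, with a log2 change of -0.02 (SE 0.28). With tetracycline its fasted libraries held 2413 and 6018 and its fed libraries 3422 and 3005, and the log2 change of 0.39 (SE 0.53) was -0.41 without fasted library 2. The values of Nr1i3 are uncertain: 3304 of its 4414 exon bases are shared with Tomm40l on the opposite strand, and the library kit does not keep the strand. Tomm40l, part of the mitochondrial import machinery, had log2 changes of -0.54 and -0.37, neither called. No other receptor of the 10 shares exon bases with another annotated gene.

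Vdr (minus strand, chr15:97854425-97910630), the vitamin D receptor, was at 32705 and 41430 in the fasted and at 30735 and 30875 in the fed libraries without tetracycline. The fasted libraries were above the fed ones, by a narrow margin for fasted library 1, and the log2 change was 0.27 (SE 0.26, 95% interval -0.24 to 0.77). Its values with tetracycline were 33462 and 43253 in the fasted and 39089 and 42007 in the fed libraries. The fasted libraries enclosed the fed ones, with a log2 change of -0.08 (SE 0.37).

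Hnf4a (plus strand, chr2:163506808-163572910) was at 66204 and 43023 in the fasted and at 54289 and 51628 in the fed libraries without tetracycline, and at 40670 and 49238 against 45166 and 53373 with it. The sides overlapped in both tables, and the log2 changes were 0.04 (SE 0.29, 95% interval -0.52 to 0.61) and -0.13 (SE 0.37, 95% interval -0.86 to 0.59). Hnf4g (plus strand, chr3:3508030-3658052), whose product shares binding sites with that of Hnf4a, was at 19935 and 14335 in the fasted and at 14562 and 16225 in the fed libraries without tetracycline. With tetracycline it had the widest split of the 10, at 12292 and 43968 in the fasted libraries against 21289 and 22630 in the fed ones. Its log2 changes were 0.15 (SE 0.28) and 0.36 (SE 0.62), and the latter was -0.84 without fasted library 2 and 1.0 without fasted library 1.

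Over the 10 receptors, both fasted libraries were above both fed ones for 3 genes without tetracycline (Ppara, Rxra and Vdr), beside 19.9% of 13223 genes, and below for 1 (Pparg), beside 24.6%. With tetracycline they were above for 1 (Rxrb), beside 15.7% of 13425 genes, and below for 1 (Ppard), beside 15.1%. The 95% interval of the fasting change lay within a doubling or halving, that is within log2 changes of -1 to 1, for 7 of 10 receptors without and 4 of 10 with tetracycline. For the others the data allow a change of that size. The test of the difference between the tables called 0 of 10 receptors, beside 0.0228% of 17571 genes, and 0 of 10 had an unadjusted p under 0.05, beside 1.05%. These differences ran from -0.71 for Ppard to 0.42 for Nr1i3, with standard errors of 0.44 to 0.67.

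**Figure D2:**
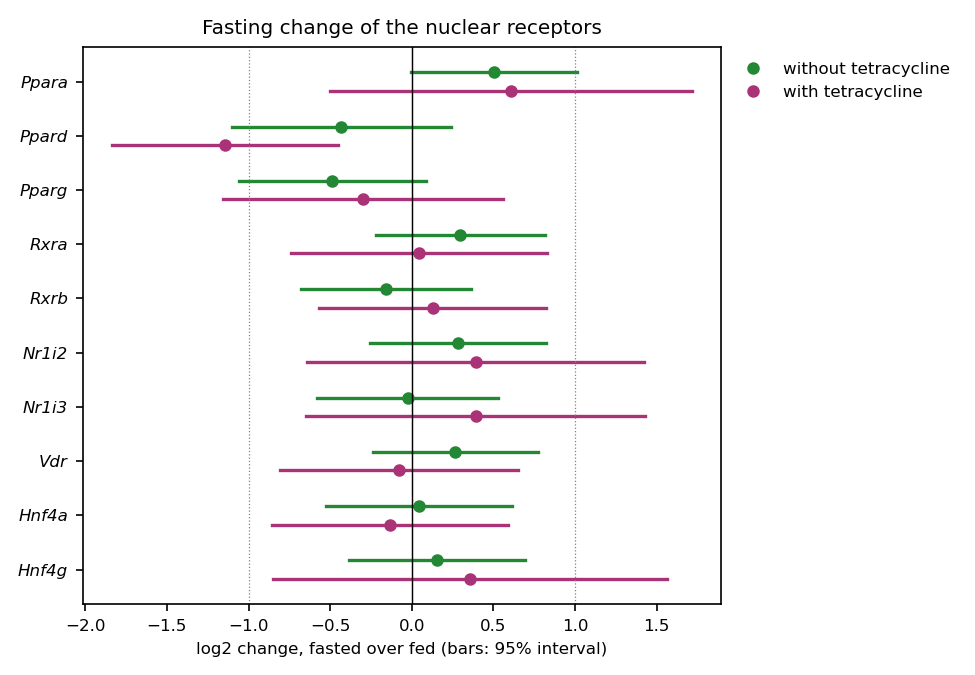
Log2 change, fasted over fed (horizontal axis), of the 10 receptors in the authors' deposited tables without (green) and with (purple) tetracycline; points are the changes, bars their 95% intervals, and dotted lines mark -1 and 1. Only the interval of Ppard with tetracycline, -1.84 to -0.45, leaves out 0, and its adjusted p is 0.132.

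In fasted library 2 with tetracycline 9 of 10 receptors were higher than in fasted library 1, beside 64.1% of 9452 genes averaging 500 or more. The ratio was 3.58 for Hnf4g, 2.67 for Ppara, 2.49 for Nr1i3 and 2.47 for Nr1i2, and these 4 exceeded 2, as did 12.2% of those genes. It was 1.63 for Pparg, 1.50 for Rxra, 1.29 for Vdr, 1.21 for Hnf4a and 1.06 for Rxrb. Without tetracycline fasted library 2 was the one with the lower Lct, and 3 of 10 receptors (Ppara, Rxrb and Vdr) were higher in it, beside 43.0% of genes. This describes 2 pairs of libraries and was not tested.

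**Figure D3:**
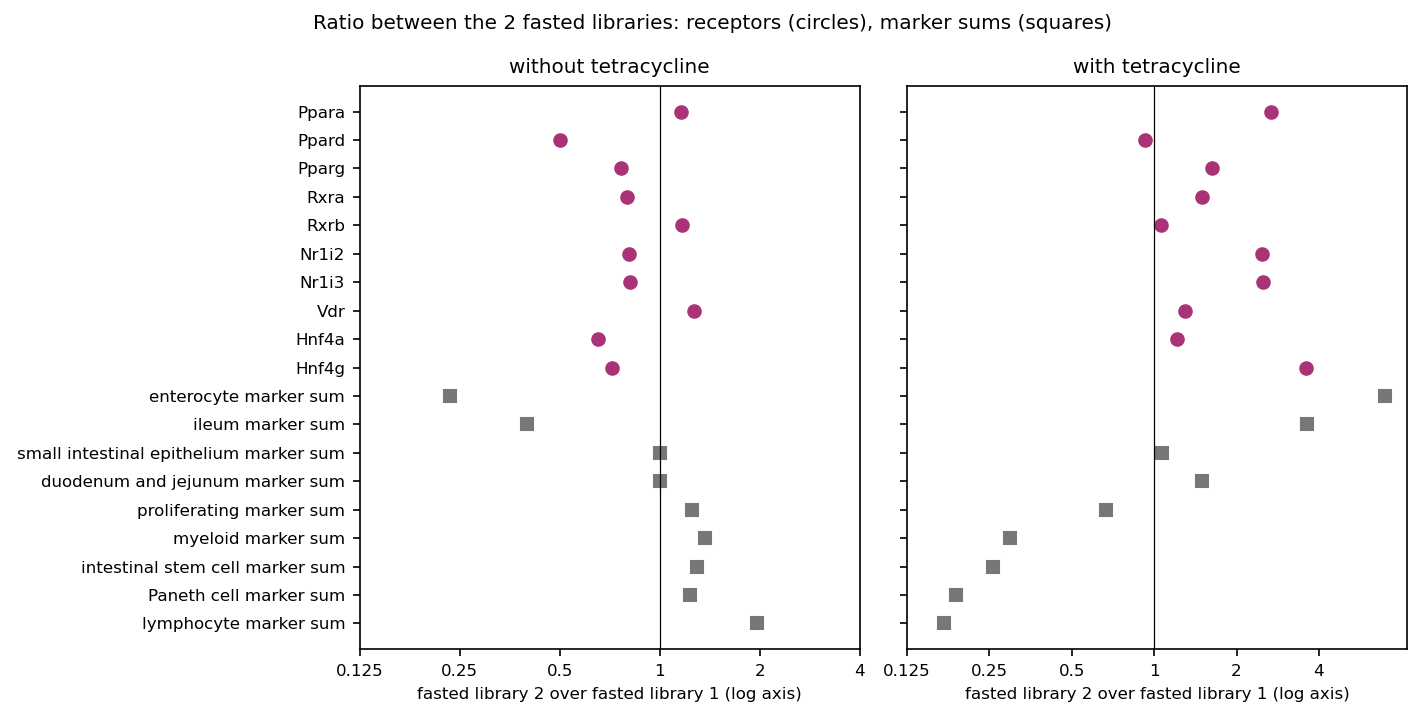
Ratio of fasted library 2 to fasted library 1 (log axis) for the 10 receptors (circles) and for marker lists (squares: sums of the genes with recovered counts, which for enterocytes is Lct alone), without (left) and with (right) tetracycline. With tetracycline Hnf4g at 3.58 and the enterocyte marker Lct at 6.97 lie at the right, while the Paneth cell sum at 0.189 and the lymphocyte sum at 0.171 lie at the left.

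Each table was scaled on its own, so the log2 ratios of levels with over without tetracycline were centred on the median of 13194 genes and were not tested. In fed mice they ran from -0.23 for Ppard to 0.68 for Ppara, with Hnf4g at 0.50, Vdr at 0.38, Pparg at 0.31, Nr1i3 at 0.19, Rxra at 0.11, Nr1i2 at 0.05, Rxrb at 0.00 and Hnf4a at -0.12. In fasted mice they ran from -0.99 for Ppard to 0.73 for Ppara, with Hnf4g at 0.64, Nr1i3 at 0.56, Pparg at 0.45, Rxrb at 0.24, Nr1i2 at 0.11, Vdr at -0.02, Rxra at -0.20 and Hnf4a at -0.35. Some markers of gut region also differed in level between the tables. Of those of the duodenum and jejunum, Cybrd1 had a mean of 572 without and 1679 with tetracycline and Slc40a1 of 5201 and 7566, while Gata4 at 10572 and 11135 and Onecut2 at 4478 and 5083 were closer. All 4 ileum markers were lower with tetracycline, from 2000 against 686 for Slc10a2 and 4576 against 2482 for Slc51b to 10637 against 7565 for Slc51a and 8225 against 7260 for Fabp6. Their part in the ratios was not tested. Single libraries carry much of the fasted ratios. Leaving out each library in turn, with centring over 13059 genes with recovered counts, the ratio of Ppard was -0.42 without the fasted library of 11541 and -1.42 without that of 5770 normalized counts, and that of Ppara was -0.08 without the fasted library of 5503 and 1.26 without that of 2060. Over the 10 receptors the sign depended on the libraries used for 4 in fed mice (Rxra, Rxrb, Nr1i2 and Nr1i3) and 6 in fasted mice (Ppara, Rxra, Nr1i2, Nr1i3, Vdr and Hnf4g).

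The other genes around the receptors were described by lists chosen with earlier results of these data known. Among 30 other nuclear receptors with an adjusted p, 0 rose and 1 fell without tetracycline, and 0 were called with it. The share of all genes called higher was 1.06% without and 0.333% with tetracycline, and lower 1.22% and 0.267%. The receptor that fell was Nr2e3, a photoreceptor regulator, at 154 and 151 normalized counts in the fasted and 395 and 343 in the fed libraries (log2 change -1.28, SE 0.33, DESeq2 adjusted p 0.00867). With tetracycline its libraries overlapped. Nr1h4, the bile acid receptor FXR, had fasted libraries at 3774 and 3993 above fed libraries at 2429 and 2863 without tetracycline, with a log2 change of 0.55 (SE 0.26, DESeq2 adjusted p 0.366) that was not called.

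Among 12 coregulators, the proteins that nuclear receptors recruit to activate or silence genes, 0 were called in either table. Their median log2 change was 0.30 without and -0.14 with tetracycline, and 11 of 12 were positive without against 3 of 12 with it. With tetracycline the sign rested on the library: the median log2 ratio to the fed mean was -0.34 in fasted library 1, with 2 of 12 positive, and 0.03 in fasted library 2, with 7 of 12 positive. The difference between the tables was not tested for the list. Ncor1, which encodes a corepressor of unliganded receptors, was at 32172 and 21627 in the fasted and at 16244 and 14803 in the fed libraries without tetracycline. Both fasted libraries were above the fed ones, but the log2 change of 0.79 (SE 0.29) had a DESeq2 adjusted p of 0.139. With tetracycline its libraries overlapped and the change was -0.06 (SE 0.39), and the Wald test of the difference gave -0.85 (SE 0.48, p 0.0784, adjusted p 1.0).

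**Figure D4:**
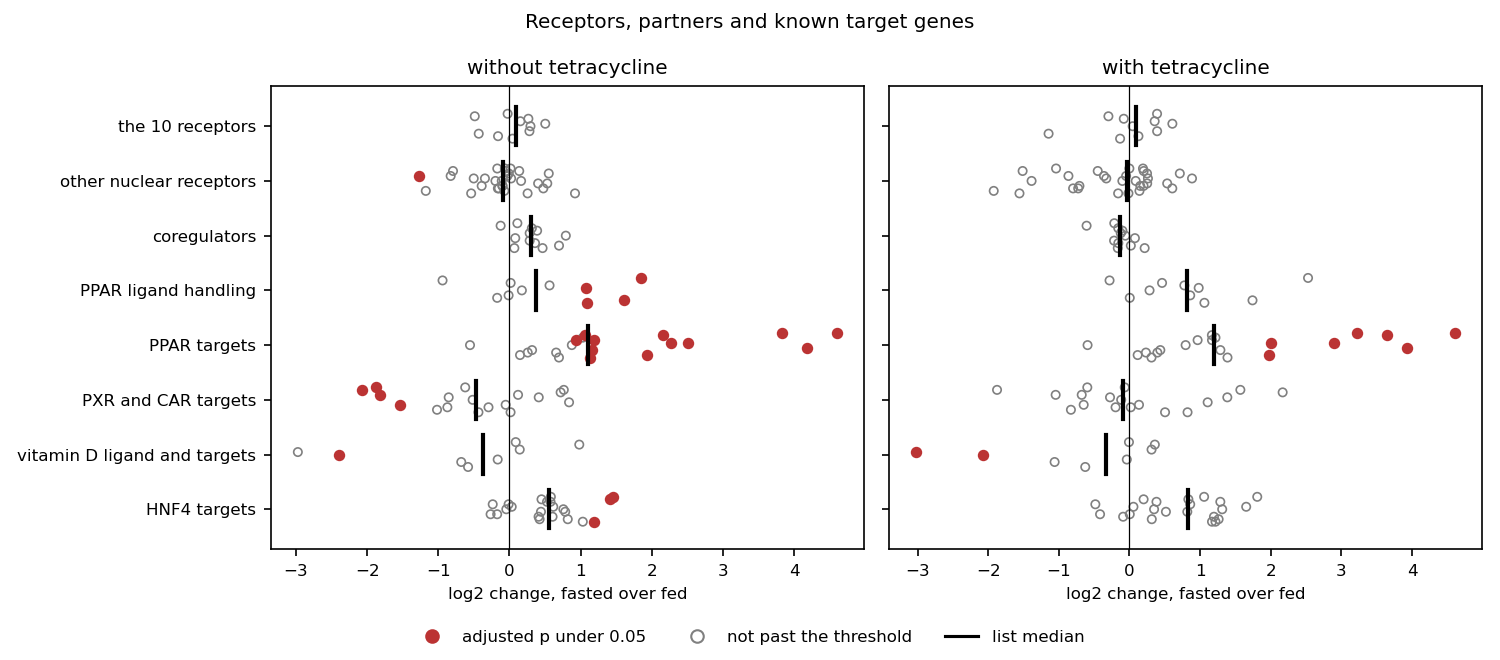
Log2 change, fasted over fed (horizontal axis), of every tested gene in each list without (left) and with (right) tetracycline; filled red points have an adjusted p under 0.05, open points do not, and vertical bars are list medians. The 10 receptors have no filled point in either panel, and the PPAR targets have 12 on the left and 7 on the right, all above 0.

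Many known PPAR targets rose in fasted mice in both tables. Of 20 tested targets 12 rose and 0 fell without tetracycline, with a median log2 change of 1.10, and 7 rose and 0 fell with it, with a median of 1.19. The rise of fatty acid oxidation genes also fits the reading of the direction, since under the opposite reading they would fall in fasted mice. Used as support for that reading, it would no longer be a separate result. Cyp4a10, a fatty acid omega-hydroxylase, was at 10321 and 21654 normalized counts in the fasted and at 454 and 1311 in the fed libraries without tetracycline. In mice given tetracycline it was at 14671 and 19326 against 812 and 1422. The sides were far apart in both tables, with log2 changes of 4.18 (SE 0.87, DESeq2 adjusted p 0.00024) and 3.93 (SE 0.45, DESeq2 adjusted p 9.08e-14). Acot1, a cytosolic acyl-CoA thioesterase, rose by 3.83 (SE 0.37) and 3.22 (SE 0.56), and its mitochondrial relative Acot2 by 2.51 (SE 0.35) and 2.01 (SE 0.43). Acot1 and Acot2 are close in sequence, and how the counting split reads between them is not given in the sources used here. In fasted library 1 with tetracycline, the library low in Lct, the median log2 ratio of the 19 targets with recovered counts over the fed mean was 0.97, and in fasted library 2 it was 1.47. Of these 19, 18 and 19 were above the fed mean in the one and the other library. The lowest changes among the 20 tested targets, -0.55 without and -0.59 with tetracycline, were not called and belong to a target with a mean below 50 that is not among these 19. The Wald test of the difference between the tables called 0 of the 172 genes it covered on all lists, markers included, and 6 of them had an unadjusted p under 0.05, beside 1.05% of all genes. The smallest p of the 6 were those of the stromal marker Col3a1 (difference 3.07, Wald p 8.85e-05, adjusted p 0.194) and the ileum marker Fabp6 (difference 2.92, Wald p 0.000387, adjusted p 0.566); the others were the nuclear receptor gene Rorb, the PPAR target Angptl4, the stromal marker Col1a2 and the PXR and CAR target Gstm1.

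Among 10 genes that take up, bind or activate fatty acids, the ligands of the PPARs, 4 rose without tetracycline and 0 were called with it. Slc27a2, a fatty acid transporter and acyl-CoA synthetase, was at 19247 and 23569 in the fasted and at 6227 and 7820 in the fed libraries without tetracycline, with a log2 change of 1.61 (SE 0.27, DESeq2 adjusted p 8.15e-07). Its values with tetracycline were 13771 and 40398 against 7528 and 8661. The fasted libraries were above the fed ones there too, but with a spread that left a log2 change of 1.74 (SE 0.57) with a DESeq2 adjusted p of 0.209. The fatty acid translocase Cd36 had log2 changes of 1.84 (SE 0.35) and 2.53 (SE 0.83), the acyl-CoA synthetase Acsl1 1.10 (SE 0.25) and 1.06 (SE 0.52), and the fatty acid binding protein Fabp1 1.08 (SE 0.27) and 0.98 (SE 0.38), each called without tetracycline and not with it. Fabp1 is also an enterocyte marker, and the difference between the tables was not called for any of them. With tetracycline the sign of the list rested on the library: over the 7 genes with recovered counts the median log2 ratio to the fed mean was -0.22 in fasted library 1, with 3 of 7 positive, and 1.03 in fasted library 2, with 6 of 7 positive. Without tetracycline it was 0.43 in fasted library 1, with 7 of 8 positive, and 0.37 in fasted library 2, with 4 of 8 positive.

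Among 18 targets of PXR and CAR 0 rose and 4 fell without tetracycline, with a median log2 change of -0.48, and 0 were called with it, with a median of -0.09. Gstm1, a glutathione transferase, was at 9052 and 9654 in the fasted and at 24259 and 44257 in the fed libraries without tetracycline. Both fasted libraries were below both fed ones, with a log2 change of -1.87 (SE 0.32, DESeq2 adjusted p 2.25e-06). With tetracycline it was at 6485 and 18501 against 20838 and 16942, and the sides overlapped. Cyp2c55, an intestinal cytochrome P450 induced through PXR, was at 3916 and 1360 in the fasted and 9423 and 12817 in the fed libraries without tetracycline, a log2 change of -2.08 (SE 0.42, DESeq2 adjusted p 0.000178). With tetracycline its fasted libraries, at 536 and 2289, were again below the fed ones at 5435 and 4917, with a log2 change of -1.87 (SE 0.66) that was not called. Gsta1 and Gsta4, further glutathione transferases, fell by 1.81 and 1.53 on the log2 scale without tetracycline. Some glutathione transferases of a class are close in sequence, and their counts are uncertain where reads could belong to several. Shared reads were not measured for the genes named here. Cyp3a11, the classical PXR target, chosen for mention after its values were seen, had log2 changes of 0.72 (SE 0.41, DESeq2 adjusted p 0.561) and 2.17 (SE 0.93, DESeq2 adjusted p 0.711). Its means lay above the range in which counts per library were recovered. Within the list the sign with tetracycline rested on the library: over the 16 genes with recovered counts the median log2 ratio to the fed mean was -1.35 in fasted library 1 and 0.45 in fasted library 2.

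Of 8 tested genes of the vitamin D list, 1 (Trpv6) fell without and 2 (Trpv6 and S100g) fell with tetracycline, and 0 rose in either; 3 and 2 of the 8 had a positive change. Trpv6, the apical calcium channel, was at 126 and 129 normalized counts in the fasted and at 275 and 1065 in the fed libraries without tetracycline. Its values with tetracycline were 116 and 118 against 436 and 554. The fasted libraries were below the fed ones in both tables, with log2 changes of -2.40 (SE 0.51, DESeq2 adjusted p 0.000458) and -2.08 (SE 0.43, DESeq2 adjusted p 0.000569). Without tetracycline the size of the change depends on the fed library, as these were wide apart. S100g, the calcium carrier calbindin of the enterocyte cytosol, was at 4813 and 4235 in the fasted and at 11878 and 59191 in the fed libraries without tetracycline, where the fed libraries were wide apart and the log2 change of -2.97 (SE 0.96) had a DESeq2 adjusted p of 0.0750. With tetracycline it was at 2982 and 2298 against 22845 and 20031, and fell by 3.02 on the log2 scale (SE 0.38, DESeq2 adjusted p 5.91e-12). Atp2b1, the calcium pump of the plasma membrane, had log2 changes of -0.58 (SE 0.28) and -0.63 (SE 0.46), and the manganese exporter Slc30a10 -0.68 (SE 0.43) and -1.06 (SE 0.62), none called. Cyp24a1, the calcitriol-degrading enzyme, had a mean of 1.52 normalized counts without tetracycline and was not listed with it.

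The bases upstream of the RefSeq starts of both calcium genes are shown because both genes fell in the table with tetracycline; capitals mark AGGTCA, the core hexamer of many nuclear receptor response elements, on either strand (TGACCT is its reverse) and, in Trpv6, the HNF4 site CAAAGTCCA. The windows are chr6:41636406-41636655 for Trpv6 and chrX:162964600-162964849 for S100g, both on the minus strand (RefSeq, GRCm38.p6) and written in the direction of the gene.
Trpv6: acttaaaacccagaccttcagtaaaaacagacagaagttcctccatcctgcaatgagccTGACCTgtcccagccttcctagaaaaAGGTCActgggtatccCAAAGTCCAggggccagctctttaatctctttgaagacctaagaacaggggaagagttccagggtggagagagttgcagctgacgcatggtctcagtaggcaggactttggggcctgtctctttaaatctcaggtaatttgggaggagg
S100g: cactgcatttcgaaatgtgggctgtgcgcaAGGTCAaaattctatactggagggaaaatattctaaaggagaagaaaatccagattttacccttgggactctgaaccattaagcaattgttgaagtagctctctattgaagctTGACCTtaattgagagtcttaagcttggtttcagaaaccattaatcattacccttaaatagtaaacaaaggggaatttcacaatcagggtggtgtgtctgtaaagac

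AGGTCA occurred on either strand in 14.0% of 32851 promoter windows of 250 bases and CAAAGTCCA in 0.384%. RefSeq windows were matched by symbol for 9 of the 10 receptors, 14 windows in all. Of these 14, 3 held AGGTCA, 0 held CAAAGTCCA, 1 held the E-box CACGTG, found in 6.02% of all windows, and 9 held the GC box GGGCGG, found in 32.7%. The windows with AGGTCA were 2 of Pparg and 1 of Rxra. The full window of Ppard held 3 GC boxes, of which 2 lie in the bases shown. The motifs were searched on both strands and do not overlap one another in these letters. A match is a run of letters and not a measured binding site.

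Among 22 HNF4 targets 3 rose without tetracycline (Acadl, G6pc and Apob) and 0 fell, with a median log2 change of 0.55, and 0 were called with it, with a median of 0.83. Of the 9 enterocyte markers 8 are on the list, with medians of 0.58 and 0.94 and 0 called; the other 14 targets, split off after seeing the data, had medians of 0.49 and 0.68 and held the 3 called genes. Acadl, the long-chain acyl-CoA dehydrogenase, which is also on the PPAR list, was at 16965 and 19577 in the fasted and at 7155 and 8874 in the fed libraries without tetracycline (log2 change 1.19, SE 0.26, DESeq2 adjusted p 0.000735). Its values with tetracycline were 18027 and 28788 against 9866 and 10954, with a log2 change of 1.17 (SE 0.42) that was not called. Apob, the structural protein of chylomicrons, had log2 changes of 1.41 (SE 0.42, DESeq2 adjusted p 0.0370) and 0.83 (SE 0.76, not called). G6pc, which releases glucose from its phosphate, had log2 changes of 1.46 (SE 0.41, DESeq2 adjusted p 0.0206) and 1.81 (SE 0.72, DESeq2 adjusted p 0.584). Creb3l3, a lipid-regulating transcription factor on both lists, had changes of 1.03 (SE 0.34) and 1.22 (SE 0.50), neither called. The median of the list differed between fasted libraries: over 13 genes with recovered counts, the median log2 ratio to the fed mean was 0.98 in fasted library 1 and -0.14 in fasted library 2 without tetracycline, and -0.72 and 1.19 with it. In each table the higher median was in the fasted library with the higher Lct, itself 1 of these genes.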

How the data were processed

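RNA of small-intestinal crypts, loosened with EDTA and then treated with trypsin, was sequenced with a kit that keeps no strand, per the labels' protocols. The submitters' processing notes name Salmon, DESeq2 and mm10 as used by the authors, without tool versions; how the counts per gene were made is otherwise not given in the sources used here. The authors deposited 2 tables comparing fasted with fed mice, 1 without and 1 with tetracycline. Per the file headers, the authors' columns are those of DESeq2. The deposited mean is a signal: counts scaled by size factors and averaged over the table's libraries. The deposited changes and their standard errors are log2 values. The ratio of these is deposited as a score. The p-values deposited beside it were adjusted by Benjamini-Hochberg. These means summed to 65863261 and 65327199 normalized counts, and 24182 genes were in both tables. There were 0 unused per-sample columns.

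Whole counts per library were recovered from the deposited mean and fold change for genes with means of 50 to 65000, an upper limit set after seeing that solutions above it were less distinct: 99.9% of 13241 genes without and 99.6% of 13484 with tetracycline had a single solution, all 10 receptors among them, with 531 counts or more in each library. Size factors ran from 0.930 to 1.09 without and from 0.727 to 1.27 with tetracycline. The recovery was tested on simulated data. Libraries are shown as single values with no test, and no count model was run. The authors' adjusted p under 0.05 is a call. Whether fasting changes differed between tables was tested with a two-sided Wald test, with the variances of both changes added, adjusted over 17571 genes. Rebuilt group means with pseudocount 1 served for levels across tables. The members and lists were chosen with earlier results of these data known. Genes named are the 10 receptors and, of each other list that is described, up to 4 with the smallest adjusted p in either table and a mean of at least 50; of marker lists, single genes are named only as examples. Tomm40l and Cyp24a1 were named for their relation to a receptor. Some genes that the rule names are not reported here. A further part of the rule, the nearest receptor of each called member, named none. Sequences came from RefSeq by symbol, and gene models from GENCODE release 21 (GRCm38), which matched 99.3% of identifiers without their versions. Python 3.11.15, pandas 2.3.3 and scipy 1.17.1 were used. The closing section gives the alternatives tried.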

Additional observations from a re-analysis of the deposited data

How the results depend on the processing

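The count of called receptors was 0 in each of the 12 alternatives tried: an adjusted p under 0.01, the adjustment over all rows or over genes with a mean of at least 50, and, for the fasting changes, over protein-coding genes or, for their difference, the Wald statistic divided by its robust SD of 0.71. The 20 fasting changes of single receptors kept their direction after centring and after rebuilding with pseudocount 1, and so did 19 of 20 tetracycline level ratios without centring and with pseudocount 10; the exception was Vdr in fasted mice, at -0.02 and, without centring, 0.05. Of 28 list counts under alternatives chosen after seeing the data, 1 moved by over 1.5 times: at an adjusted p under 0.01, 1 HNF4 target was called without tetracycline in place of 3. Leaving out each library in turn changed the sign of 3 of 10 receptors without tetracycline (Nr1i3, Hnf4a and Hnf4g) and of 7 of 10 with it; with tetracycline the log2 ratio ran from -0.27 to 1.15 for Ppara, -0.69 to 0.01 for Pparg, -0.28 to 0.31 for Rxra, -0.40 to 0.90 for Nr1i2, -0.41 to 0.91 for Nr1i3, -0.28 to 0.09 for Vdr and -0.84 to 1.0 for Hnf4g. No paired analysis was possible because the labels give 1 sample per group and the recovered libraries carry no numbers of their own. With 2 libraries a side, standard errors of 0.26 to 0.62 limit what these tables can show for the receptors.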
